A study of Mus musculus with 20 samples.

Results

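Fatty acid oxidation breaks fatty acids down to acetyl-CoA, and 39 genes of this machinery were followed through 20 RNA-seq libraries of mouse renal tubular epithelial cells (TECs). The genes were chosen by name, and each was found by the mouse Ensembl identifier that maps to its symbol, so that all 39 of 39 had a line among the 55891 genes of the deposited table. They cover the enzymes that activate fatty acids, the carnitine shuttle, the acyl-CoA dehydrogenases and their electron acceptors, the later steps of the cycle, the enzymes for double bonds, peroxisomal oxidation, thioesterases and regulators. Of the 39 genes, 38 passed the filter on low counts and were tested; Ppara, the nuclear receptor that drives many of these genes in liver, did not, with 0 to 0.667 CPM (counts scaled to library size) in any library.

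Long-chain fatty acids are first joined to coenzyme A, passed into mitochondria as carnitine esters, and then shortened in repeated turns of dehydrogenation, hydration, dehydrogenation and thiolysis. The first dehydrogenation is shared out by chain length: Acadvl takes very long chains, Acadl long chains, Acadm medium chains and Acads short chains. Proximal tubule cells of the kidney draw much of their ATP from this pathway, and loss of its enzymes is known from injured tubules.

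The cells were primary TECs from mice of strain B6.129-Ptprz1tm1Nmo, grown in medium with 10% FBS and hormones. Ptprz1 encodes a receptor tyrosine phosphatase. The 4 groups of 5 libraries were knockout (KO) cells given LPS at 100 ng/mL with IFNγ at 10 ng/mL for 24 h, heterozygous (het) cells given the same, untreated KO cells and untreated het cells. The het cells, which carry a targeted allele too, stood for Ptprz1-expressing cells, and no cells without that allele were included. The libraries came from 10 animal numbers with 2 libraries each; numbers 5 and 7 are listed once under each genotype, so the label leaves their genotype unsettled. Age and sex of the mice were not used here.

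Libraries held 12899528 to 20411411 counts. Ptprz1 itself was at 0 to 0.453 CPM in the KO libraries and 0 to 0.255 CPM in the het libraries, so it did not check the genotype labels. Nos2, the LPS- and IFNγ-inducible nitric oxide synthase, was at 1255 to 3563 CPM in 8 of the 10 libraries labelled LPS+IFNγ and at 0 in the other two, KO replicate 4 (animal 8) and het replicate 5 (animal 4). The controls of those 2 animals held 202 CPM (KO replicate 4) and 82.8 CPM (het replicate 5), whereas no other control exceeded 0.219 CPM. These 4 libraries go against their stimulation labels; the counts of members called, the Acadm to Acadl ratio and the changes of Acadm, Acadl, Acsl5, Cpt1a, Crat, Etfb, Acat1, Hsd17b4 and Acox3 are given with all 20 libraries and without animals 4 and 8 (16 libraries). The changes of the remaining members are given with 16 libraries. All 8 tubular epithelium markers were detected, with summed levels of 1679 to 3779 CPM in LPS+IFNγ libraries and 2402 to 3716 CPM in control libraries, while 9 of 18 proximal tubule markers stayed under 1 CPM in every library. The sums hide that Epcam (0.146 to 0.935 CPM) and Cdh1 (0.365 to 1.72 CPM) were low in both libraries of animals 2, 6 and 10. In the libraries of the other animals Epcam ranged from 14.0 to 75.9 CPM and Cdh1 from 18.8 to 200 CPM. In cultures of this kind, fewer cells of a type and less RNA per cell cannot be told apart.

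The promoters of Acadm and Acadl, which are set against each other below, and of Acsl5, which rose in the test with 20 libraries, are printed here 5′ to 3′ as the 250 bases before the RefSeq start of each gene (mouse build GRCm38.p6; 32 of the 39 genes matched a promoter). Capitals mark the nuclear receptor hexamer AGGTCA and the GC box GGGCGG, read on both strands. Acaa2, Decr1, Acat1, Acad9, Cpt1b, Hsd17b4 and Crat were not matched.
Acadm promoter, chr3:153944644-153944893, minus strand: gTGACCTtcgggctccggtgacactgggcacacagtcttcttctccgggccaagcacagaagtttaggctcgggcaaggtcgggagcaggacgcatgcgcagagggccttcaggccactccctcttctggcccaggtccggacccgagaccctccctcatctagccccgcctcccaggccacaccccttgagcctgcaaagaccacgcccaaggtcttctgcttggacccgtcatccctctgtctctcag
Acadl promoter, chr1:66863310-66863559, minus strand: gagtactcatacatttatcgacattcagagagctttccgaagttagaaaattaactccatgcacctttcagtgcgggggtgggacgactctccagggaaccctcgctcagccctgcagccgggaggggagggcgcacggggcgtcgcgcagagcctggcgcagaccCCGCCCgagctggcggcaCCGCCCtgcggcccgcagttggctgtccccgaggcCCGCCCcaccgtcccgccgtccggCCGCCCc
Acsl5 promoter, chr19:55253119-55253368, plus strand: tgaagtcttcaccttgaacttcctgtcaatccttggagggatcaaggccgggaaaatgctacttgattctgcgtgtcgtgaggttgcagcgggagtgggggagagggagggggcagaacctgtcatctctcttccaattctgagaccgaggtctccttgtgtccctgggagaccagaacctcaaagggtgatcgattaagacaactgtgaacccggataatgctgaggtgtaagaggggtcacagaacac
Acadl carried 4 GC boxes, and neither of the others held one. Acadm carried 1 hexamer, at the far end of its window, and neither Acadl nor Acsl5 held one. GC boxes stood in 21 of the 33 windows of the listed genes (a gene can have more than 1 start), against 32.7% of 32851 windows of the same length over all genes. The hexamer stood in 4 of 33, those of Acadm, Acadvl, Cpt1a and Echs1, against 14.0% of all windows. No match of 1 motif overlapped a match of another in the printed windows. These are letter matches and show nothing of binding.

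Per kilobase of exon, the listed genes spanned a wide range of levels. Acadl was highest, at 88.5 ± 33.5 CPM per kb (SD over 20 libraries), followed by Etfb at 58.6 ± 12.7, Acadvl at 40.7 ± 3.68, Acaa2 at 39.6 ± 7.27, Etfa at 39.2 ± 7.05 and Hsd17b4 at 37.6 ± 6.67 CPM per kb. Neighbours from Acadvl to Hsd17b4 lay within 1 SD of each other. Acadm, at 15.2 ± 3.88 CPM per kb, ranked 15 of 39, close to Hadha at 15.3 ± 1.26 CPM per kb. The lowest were Ppara at 0.0719 ± 0.0458, Cpt1b at 0.147 ± 0.120, Ppargc1a at 0.659 (0.087 to 2.76) and Ehhadh at 1.29 ± 0.368 CPM per kb. Cpt1b is the muscle form of carnitine palmitoyltransferase, and Cpt1a, the liver form that most other tissues also use, stood at 25.0 ± 8.42 CPM per kb. The members together made up 0.202% to 0.337% of each library's counts.

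**Figure D1:**
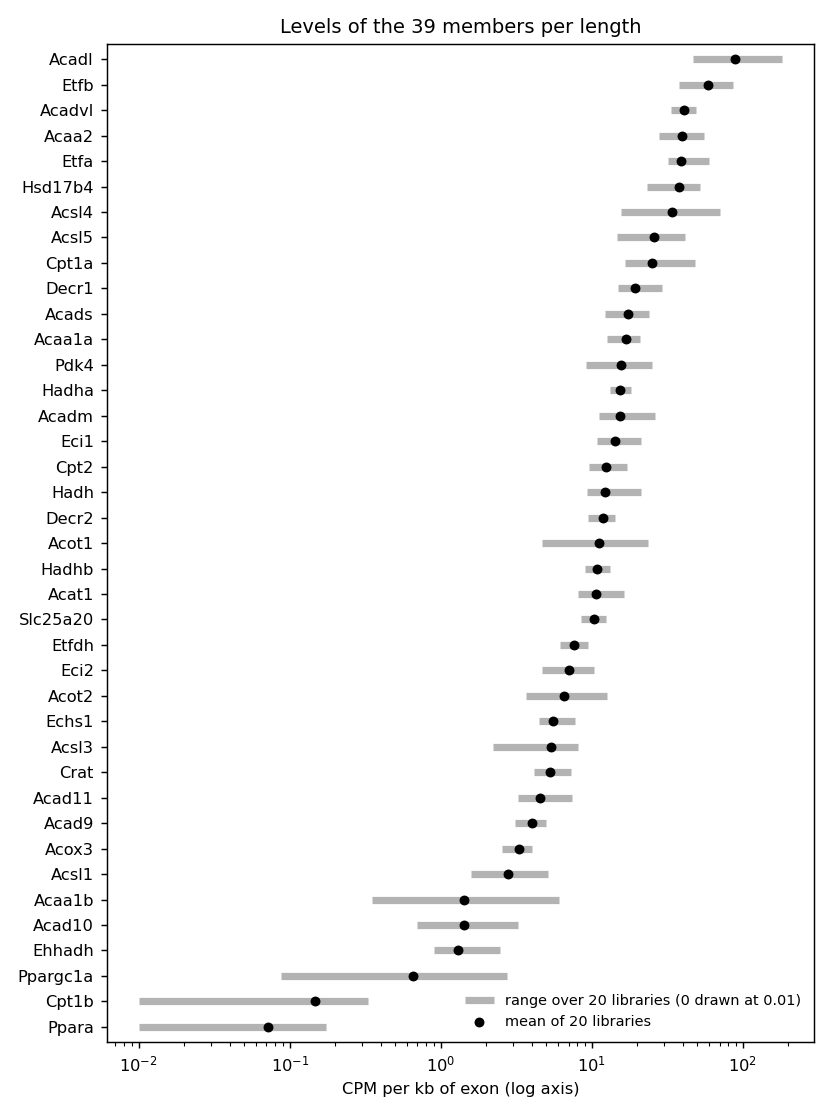
Mean level of each of the 39 genes in CPM per kb of exon on a log axis (points) with the range over 20 libraries (bars, values of 0 drawn at 0.01). Acadl stands highest at 88.5 CPM per kb and Ppara lowest at 0.0719 CPM per kb.

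Hadha, Acadvl and Slc25a20 varied least relative to their mean. Hadha, the large subunit of the mitochondrial trifunctional protein, kept within 114 to 159 CPM over all 20 libraries, and Slc25a20, the carnitine-acylcarnitine translocase, within 41.3 to 60.2 CPM. Acadvl ranged from 89.6 to 131 CPM. Ppargc1a, the coactivator that promotes mitochondrial gene programmes, varied most, between 0.574 and 18.2 CPM, and Acaa1b, a peroxisomal thiolase, lay between 0.687 and 11.8 CPM. Acaa1a and Acaa1b, and likewise Acot1 and Acot2, are near-identical pairs between which reads can be misassigned, so their separate values are uncertain.

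Does stimulation with LPS and IFNγ move the pathway, and do its medium-chain and long-chain steps move alike? In the average over both genotypes, Acadm and Acadl moved in opposite directions. Acadm (ENSMUSG00000062908) stood at 45.5, 49.0, 58.5, 54.5 and 51.3 CPM in KO LPS+IFNγ libraries (replicates 1 to 5), against 60.8, 55.5, 62.0, 45.6 and 67.8 CPM in KO controls. In het cells Acadm was at 43.5, 52.7, 44.5, 49.9 and 61.5 CPM with LPS+IFNγ, against 103, 67.2, 73.3, 90.3 and 57.3 CPM in controls. Het control replicates 1 and 4 were the highest of all, and het LPS+IFNγ replicate 5, which lacked Nos2, was the highest stimulated library. Averaged over both genotypes, Acadm fell by 0.40 ± 0.10 on the log2 scale (SE, 10 libraries against 10, edgeR quasi-likelihood test, Benjamini-Hochberg adjusted p = 0.0291). Without animals 4 and 8 the change was -0.54 ± 0.092 (8 against 8 libraries, edgeR adjusted p = 9.03e-04).

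Acadl (ENSMUSG00000026003) stood at 267, 171, 208, 147 and 163 CPM in KO LPS+IFNγ libraries, against 134, 129.9, 107, 184 and 93.3 CPM in KO controls. Het cells had 365, 181, 219.6, 279 and 122 CPM with LPS+IFNγ, against 215, 113, 131, 176 and 140.5 CPM in controls. The 2 lowest stimulated values and the highest KO control value came from animals 4 and 8. The averaged change of 0.57 ± 0.18 missed the threshold with 20 libraries (edgeR adjusted p = 0.0830), and with 16 libraries Acadl rose by 0.76 ± 0.17 (edgeR adjusted p = 0.00798). By genotype over 16 libraries, 1 of the 7 acyl-CoA dehydrogenases passed as lower in het cells and 0 in KO cells. As higher, 0 passed in either genotype, so in this fit Acadl passed only in the average. With animals 1 and 9 left out instead, 0 of 38 members passed in the average, and 0.0% of genes did. The lowest edgeR adjusted p of a member was then 0.167.

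**Figure D2:**
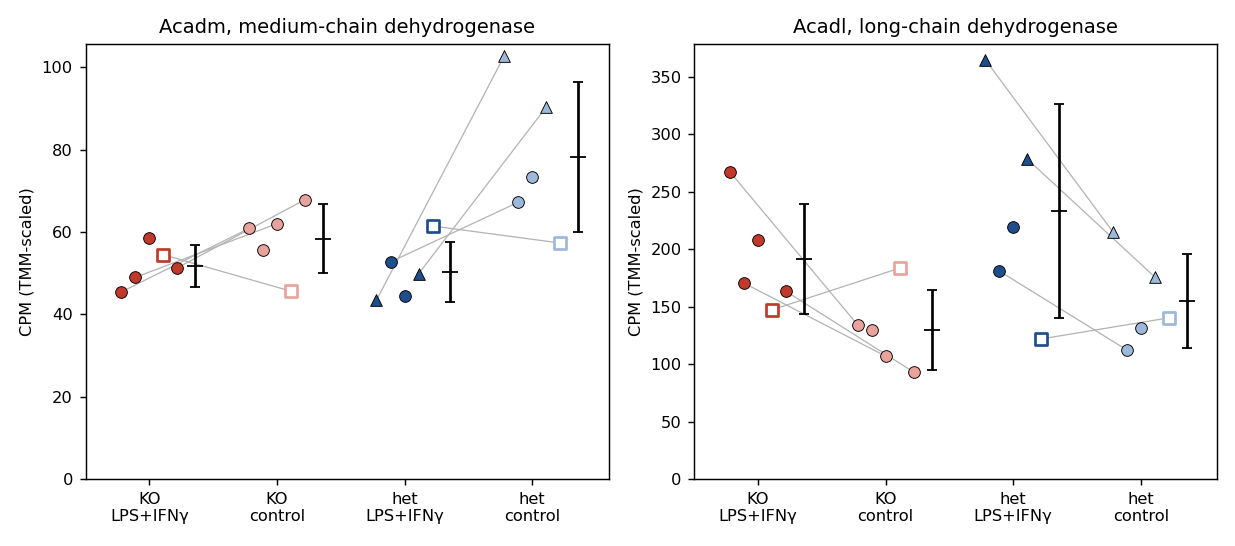
CPM of Acadm (left) and Acadl (right) in each library by group, with group mean and SD at the right of each group. Grey lines join libraries of 1 animal and genotype, open squares are animals 4 and 8, triangles animals 1 and 9; apart from the open squares, each line runs downward from control to LPS+IFNγ for Acadm and upward for Acadl.

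Since the ratio of the counts of both genes within a library needs no scaling between libraries, it was compared separately. The Acadm to Acadl ratio was 0.170, 0.287, 0.282, 0.369 and 0.314 in KO LPS+IFNγ libraries, against 0.453, 0.427, 0.579, 0.248 and 0.727 in KO controls. It was 0.119, 0.291, 0.202, 0.179 and 0.503 in het LPS+IFNγ libraries, against 0.476, 0.597, 0.558, 0.513 and 0.408 in het controls. Without animals 4 and 8, all 8 stimulated libraries (0.119 to 0.314) lay below all 8 controls (0.427 to 0.727). Of the LPS+IFNγ libraries without Nos2, 1 lay within that range of controls (0.503) and 1 between both ranges (0.369). Of the controls with Nos2, 1 lay within the range of stimulated libraries (0.248) and 1 between both ranges (0.408). How often ratios of other gene pairs separate the libraries as fully was not determined.

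In het cells the mean log2 ratio was lower with LPS+IFNγ by a difference of -1.14 (5 against 5 libraries, exact two-sided permutation test, p = 0.0238) and of -1.50 without animal 4 (4 against 4, exact permutation p = 0.0286). In KO cells the difference was -0.73 (exact permutation p = 0.0556) with all libraries and -1.06 without animal 8 (4 against 4, exact permutation p = 0.0286, the smallest that design can give). Taken per animal, with 4 animals of each genotype that had both libraries, the difference was -1.06 in het and -0.77 in KO, each with an exact p of 0.25, and 4 pairs cannot reach 0.05. Without animals 4 and 8, a choice made after seeing the data, the difference per animal was -1.52 in het and -1.21 in KO (3 animals each, exact p = 0.25, the smallest that 3 pairs can give). Without animals 1 and 9 the het difference was -0.73 (3 against 3, exact permutation p = 0.2, where the smallest possible is 0.1).

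**Figure D3:**
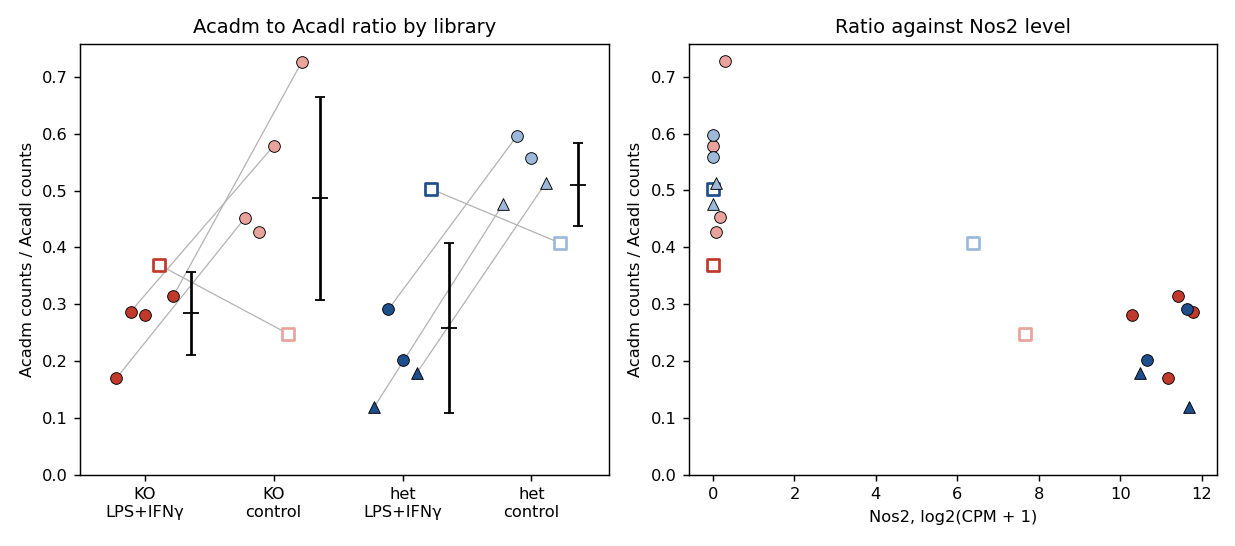
Acadm to Acadl count ratio by library and group with mean and SD (left), and the same ratio against Nos2 as log2(CPM + 1) (right). Open squares are animals 4 and 8 and triangles animals 1 and 9; the 8 libraries with the highest Nos2 have ratios of 0.119 to 0.314.

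Across the whole list, few members passed the test when all 20 libraries were used. In het cells 0 of 38 passed and in KO cells 0 of 38, where 0.0% of the 14568 genes passed in either (1981 and 1307 genes had an unadjusted p under 0.05, 7 and 2 of them members). For the average over both genotypes 3 of 38 passed, Acsl5 higher and Acadm and Etfb lower, while 5.02% of all genes passed (4.54% higher and 0.481% lower). The median member was at -0.073 on the log2 scale, beside -0.013 over all genes tested.

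Without animals 4 and 8, the averaged comparison called 8 of 38 members, against 15.0% of the 14630 genes tested. Of these, 2 rose (Acsl5 and Acadl; 10.1% of genes rose) and 6 fell (Acadm, Hsd17b4, Etfb, Acat1, Crat and Acox3; 4.88% of genes fell). In het cells alone 6 of 38 passed, against 7.15% of genes: 1 higher (5.67% of genes) and 5 lower (1.48% of genes). In KO cells 1 of 38 passed, against 5.76% of genes: Acsl5 was higher (4.81% of genes), and 0 of 38 were lower (0.95% of genes). This contrast between het and KO cells did not hold when animals 1 and 9 were left out too. Het cells then kept the LPS+IFNγ libraries of animals 2 and 5 and the controls of animals 2 and 7. Whether those left out, the fewer libraries or the changed shared fit made the difference was not tested. Without animals 1, 4, 8 and 9, het cells had 1 member higher (3.69% of genes) and 0 lower (0.506% of genes). KO cells then had 3 higher (8.66% of genes) and 2 lower (4.55% of genes). Over the 16 libraries the difference between the KO and het responses passed for 0 of 38 members and 0.0% of genes. For it 224 genes and 2 members, Acadm and Crat, had an unadjusted p under 0.05. Acadm's response was 0.54 ± 0.18 less negative in KO cells (edgeR adjusted p = 1). Within het animals 1, 2 and 9 Acadm changed by -1.24, -0.35 and -0.86 on the log2 scale. Within KO animals 3, 6 and 10 it changed by -0.42, -0.34 and -0.40. Without animals 1, 4, 8 and 9, 0 of 38 members had an unadjusted p under 0.05 for the difference of responses.

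With the animal as a block the same averaged comparison called 0 of 38 members with 20 libraries, against 0.0% of genes. It called 19 of 38 with 16 libraries, 4 higher and 15 lower, against 33.4% of genes (17.3% higher and 16.1% lower). In het cells alone the blocked fit called 2 of 38 higher (10.7% of genes) and 9 lower (7.96% of genes), and in KO cells 2 higher (8.39% of genes) and 2 lower (5.06% of genes). The additional members that fell in the blocked average were Acaa1b, Hadh, Acad11, Decr1, Slc25a20, Hadhb, Etfdh, Acadvl and Etfa, and the additional ones that rose were Acsl4 and Echs1. Acadl's change there was 0.75 ± 0.051 (edgeR adjusted p = 1.66e-05).

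**Figure D4:**
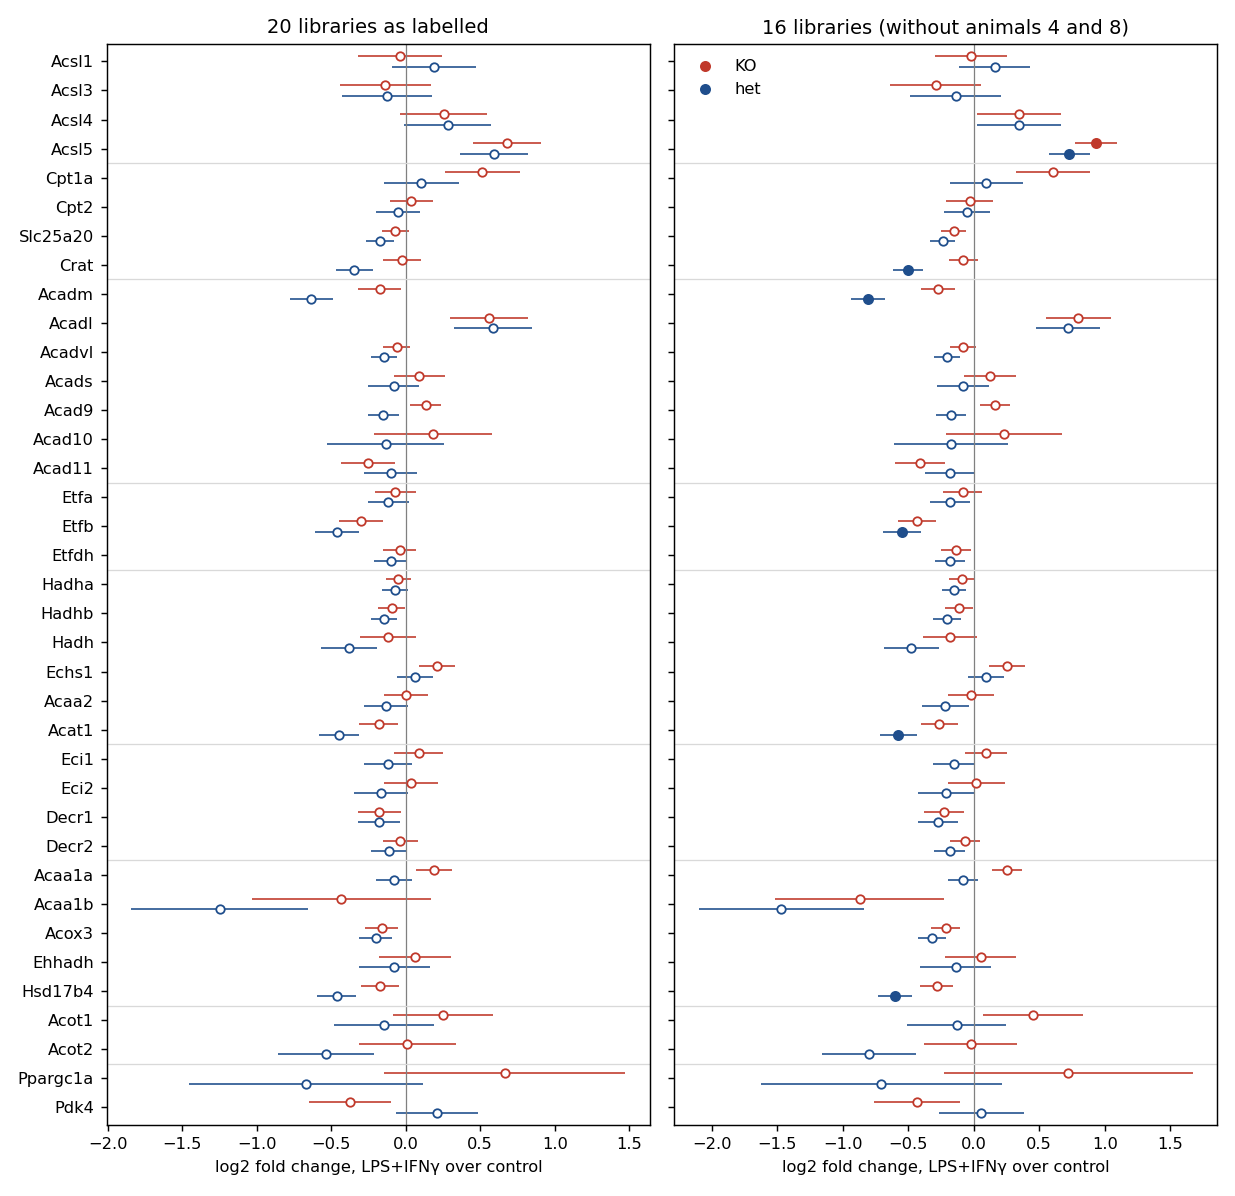
Log2 fold change of LPS+IFNγ over control with its SE for 37 of the 38 tested members (Cpt1b, with few counts, is left out) in KO (red) and het (blue) cells, with 20 libraries (left) and 16 libraries (right); grey lines separate roles. Filled points passed an edgeR adjusted p of 0.05, which 0 did with 20 libraries and 7 did with 16.

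Among the activating enzymes, acyl-CoA synthetases that charge fatty acids with coenzyme A, Acsl5 rose. Acsl5 (ENSMUSG00000024981) stood at 154, 173, 146, 92.3 and 201 CPM in KO LPS+IFNγ libraries, against 95.0, 96.3, 89.8, 126 and 71.3 CPM in KO controls. In het cells it was at 185, 162, 157, 179 and 79.3 CPM with LPS+IFNγ, against 140.4, 89.5, 84.6, 97.8 and 94.1 CPM in controls. Outside animals 4 and 8 the groups did not overlap, and the lowest stimulated library (146 CPM) stood just above het control replicate 1. Acsl5 was picked by its p on these same libraries, and the share of all genes separated as fully was not determined. The averaged change was 0.63 ± 0.16 with 20 libraries (edgeR adjusted p = 0.0282) and 0.83 ± 0.11 with 16 (edgeR adjusted p = 1.05e-04). Acsl1, Acsl3 and Acsl4 did not pass, with averaged changes of 0.07 ± 0.19, -0.22 ± 0.25 and 0.34 ± 0.23 over 16 libraries.

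In the carnitine shuttle, Cpt1a, which makes the acylcarnitine and is the pathway's main control point, did not pass (0.31 ± 0.18 over 20 libraries, edgeR adjusted p = 0.365, and 0.35 ± 0.20 over 16, edgeR adjusted p = 0.272). It stood at 198, 209, 209, 132 and 268 CPM in KO LPS+IFNγ libraries, against 148, 154, 132, 131 and 146 CPM in KO controls. Het cells had 147, 217, 178, 367 and 175 CPM with LPS+IFNγ, against 286, 127, 162, 275 and 156 CPM in controls. In KO cells every Nos2-positive LPS+IFNγ library was above every control, and the share of all genes separated in this way was not determined. In het cells the groups overlapped, with control replicates 1 and 4 high and LPS+IFNγ replicate 1 low. Without animals 1, 4, 8 and 9, a choice made after seeing the data, Cpt1a passed in KO cells (0.61 ± 0.12, edgeR adjusted p = 0.00684). There it passed in the average too (0.53 ± 0.10, edgeR adjusted p = 0.00556). Of all genes 13.2% passed in KO cells and 15.5% in the average. Animals 1 and 9 are both het, so the KO libraries were those of the 16 and only the shared fit had changed for them. Crat, carnitine acetyltransferase, fell by 0.29 ± 0.079 over 16 libraries (edgeR adjusted p = 0.0227) and was at -0.18 ± 0.090 over 20 (edgeR adjusted p = 0.273), and Cpt2 and Slc25a20 were at -0.04 ± 0.12 and -0.20 ± 0.066 without passing.

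Of the 7 acyl-CoA dehydrogenases, Acadl rose and Acadm fell over 16 libraries, and the other 5 did not pass. Acadvl was at -0.14 ± 0.070, Acads at 0.02 ± 0.14, Acad9 at -0.01 ± 0.081, Acad10 at 0.03 ± 0.31 and Acad11 at -0.30 ± 0.13. The electrons they release go to the flavoprotein of Etfa and Etfb and on to Etfdh. Etfb (ENSMUSG00000004610) stood at 55.3, 55.7, 59.4, 73.3 and 43.6 CPM in KO LPS+IFNγ libraries, against 74.3, 82.7, 75.1, 64.8 and 57.0 CPM in KO controls. Het cells had 60.3, 50.3, 62.9, 70.4 and 60.5 CPM with LPS+IFNγ, against 100.1, 85.6, 73.1, 97.2 and 62.3 CPM in controls. The groups overlapped in KO cells through control replicate 5 as well as animal 8. Etfb fell by 0.38 ± 0.10 with 20 libraries (edgeR adjusted p = 0.0411) and by 0.49 ± 0.10 with 16 (edgeR adjusted p = 0.00403), while its partner Etfa was at -0.13 ± 0.11.

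Among the later steps, Acat1, the mitochondrial acetoacetyl-CoA thiolase, fell by 0.42 ± 0.099 over 16 libraries (edgeR adjusted p = 0.00959) and missed the threshold with 20 (-0.31 ± 0.093, edgeR adjusted p = 0.0585). It was at 30.7, 30.4, 42.3, 41.1 and 31.2 CPM in KO LPS+IFNγ libraries, against 42.9, 40.6, 37.8, 37.7 and 40.1 CPM in KO controls. Het cells had 32.4, 32.9, 31.9, 38.8 and 42.3 CPM with LPS+IFNγ, against 61.3, 38.9, 48.6, 53.7 and 40.7 CPM in controls. KO LPS+IFNγ replicate 3, from an animal listed under both genotypes, lay among the controls. Hadha, Hadhb, Hadh, Echs1 and Acaa2, which complete the turn of the cycle, had averaged changes between -0.33 (Hadh) and 0.17 (Echs1) over 16 libraries and did not pass. The 4 enzymes for double bonds, Eci1, Eci2, Decr1 and Decr2, lay between -0.25 and -0.03, and none passed.

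In the peroxisomal set, Hsd17b4, the bifunctional enzyme for very long and branched chains, fell by 0.44 ± 0.090 over 16 libraries (edgeR adjusted p = 0.00364) and was at -0.32 ± 0.092 over 20 (edgeR adjusted p = 0.0531). It stood at 126, 113, 115, 144 and 103 CPM in KO LPS+IFNγ libraries, against 138, 142, 136, 121 and 139 CPM in KO controls. Het cells had 78.3, 99.4, 116, 112 and 132 CPM with LPS+IFNγ, against 171, 134, 135, 176 and 127 CPM in controls. Once animals 4 and 8 were set aside, every stimulated library lay below every control. Hsd17b4 too was picked by its p on these libraries, and the share of all genes separated as fully was not determined. Acox3, a peroxisomal acyl-CoA oxidase, fell by 0.27 ± 0.076 over 16 libraries (edgeR adjusted p = 0.0290) and was at -0.18 ± 0.078 over 20 (edgeR adjusted p = 0.204), Acaa1b was at -1.17 ± 0.45 and Acaa1a at 0.09 ± 0.081. The thioesterases Acot1 and Acot2, which split acyl-CoA again, were at 0.16 ± 0.27 and -0.41 ± 0.25, and Pdk4, which spares glucose by inhibiting pyruvate dehydrogenase, was at -0.19 ± 0.23; none of these 3 passed.

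Within animals the direction was uniform for the 6 members with the lowest p of the averaged stimulation contrast. In the 6 animals that had both libraries under 1 genotype and followed their labels, Acadm, Etfb, Hsd17b4 and Acat1 were lower with LPS+IFNγ in 6 of 6 and Acadl and Acsl5 higher in 6 of 6. These members were picked on the same libraries, and animals against their labels were left out. The uniform direction follows in part from these choices and is no separate evidence. The share of all genes with a direction as uniform was not determined. The log2 change within an animal ran from -1.24 to -0.34 for Acadm and from 0.66 to 0.99 for Acadl. Cpt1a was higher in 5 of 6, the exception being animal 1 (-0.97).

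Does loss of Ptprz1 change the pathway? In untreated cells 0 of 38 members passed in KO against het cells, and 0.0% of genes did (499 genes had an unadjusted p under 0.05). Of the 38 members, 34 were lower in KO (49.6% of all genes), with a median of -0.26 beside 0.002 over all genes. An unadjusted p under 0.05 was seen for 8 members, all lower in KO. Acadm was at -0.42 ± 0.15 (edgeR adjusted p = 0.999). This tilt moved with het control replicates 1 and 4 (animals 1 and 9): without these animals 22 of 38 members were lower in KO (45.9% of all genes) and the median was -0.041. With LPS+IFNγ, 0 of 38 members passed (0.0% of genes, with 366 genes at an unadjusted p under 0.05). Lower in KO were 26 members (50.5% of all genes), and the median was -0.081. Without animals 1 and 9, 17 were lower and 21 higher in KO with LPS+IFNγ, near the share over all genes (46.5% lower). The median was 0.050, beside 0.013 over all genes. Without animals 4 and 8, 35 members were lower in KO in controls (50.5% of all genes) and 26 with LPS+IFNγ (50.3% of all genes). The Acadm to Acadl ratio differed by -0.14 between KO and het controls (exact permutation p = 0.667) and by 0.27 with LPS+IFNγ (exact permutation p = 0.524, n = 5 each).

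Animals 1 and 9, both het, stood apart in culture state. Their control libraries had proximal tubule scores (mean log2 CPM over 18 marker genes) of 1.24 and 0.88, against -1.55 to -0.89 in the other 8 controls. Hnf4a, a transcription factor of proximal tubule and liver, reached 174 CPM in the library of animal 1 and 77.2 CPM in that of animal 9; the remaining controls ranged up to 2.91 CPM. The 10 leukocyte markers summed to 90.0 CPM (animal 1) and 332 CPM (animal 9), while the remaining controls ranged between 5.84 and 22.9 CPM. The 7 fibroblast markers were low in the same libraries, summing to 53.6 CPM (animal 1) and 541 CPM (animal 9), while the remaining controls ranged between 977 and 14692 CPM. The part of these marker lists in the values below was not tested.

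Both of these libraries lay above all 8 other controls in 23 of 38 tested members, against 14.1% of all genes, and both lay below in 1 of 38, Pdk4, against 14.2%. Ppargc1a reached 16.9 CPM in animal 1 and 18.2 CPM in animal 9, and the other 8 ranged between 0.574 and 2.61 CPM. Acad10, an acyl-CoA dehydrogenase family member of little known substrate, reached 17.2 CPM (animal 1) and 18.8 CPM (animal 9), and the other 8 spanned 5.34 to 7.51 CPM. Cpt1a was at 286 and 275 CPM against 127 to 162 CPM, and Eci1, which shifts double bonds, at 45.1 and 41.2 CPM against 23.1 to 30.9 CPM. Acadl, Acadvl, Hadhb and Acsl5 were among the 15 that were not above in both.

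**Figure D5:**
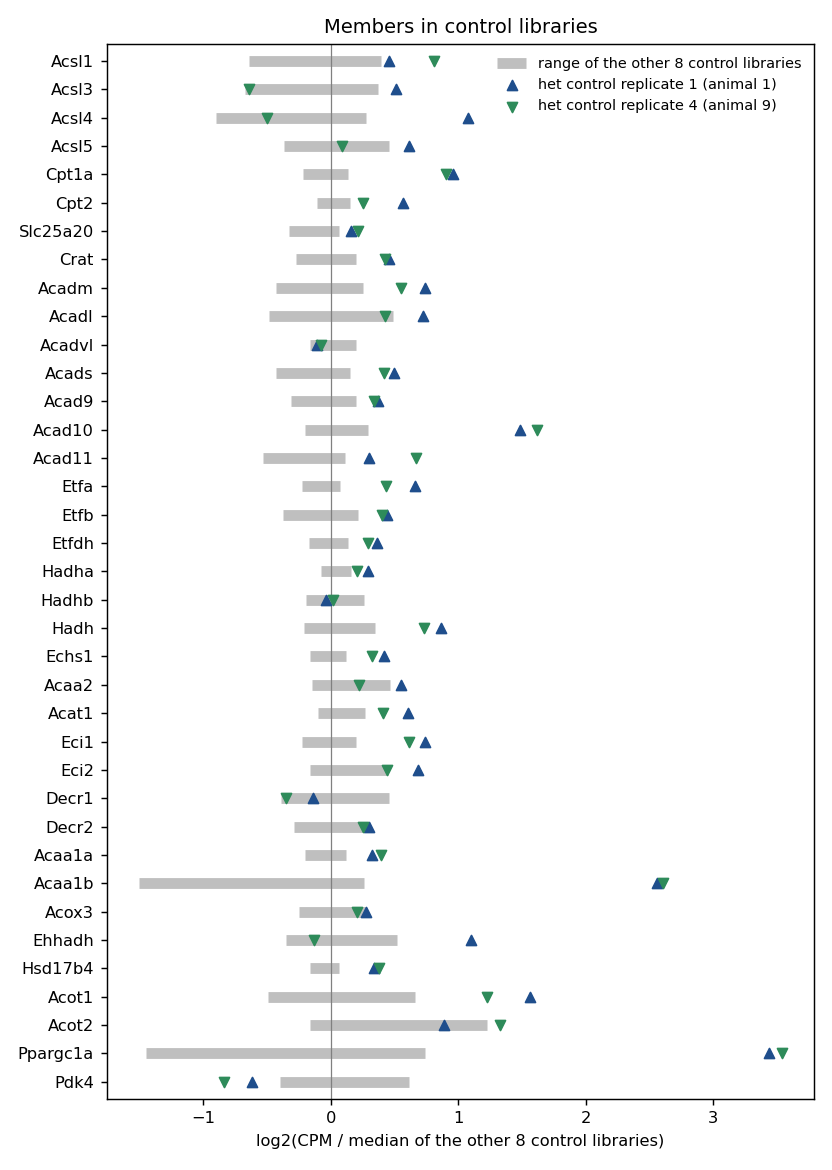
Log2 of CPM over the median of the other 8 control libraries for 37 members in het control replicate 1 (blue) and replicate 4 (green), with the range of the other 8 controls (grey bars). Ppargc1a, Acaa1b and Acad10 lie farthest to the right, and Pdk4 is the member with both points left of the bar.

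A slope on the score over the 10 control libraries, with genotype as a covariate, passed for 14 of 38 members, all positive, against 7.45% of genes with a positive slope that passed. Per unit of score the slopes were 0.39 ± 0.046 for Cpt1a (edgeR adjusted p = 0.00146), 0.66 ± 0.090 for Acad10 (edgeR adjusted p = 0.00248), 0.29 ± 0.044 for Eci1 (edgeR adjusted p = 0.00356) and 1.39 ± 0.23 for Ppargc1a (edgeR adjusted p = 0.00547). These slopes rest on the control libraries of animals 1 and 9, without which 0 of 38 passed (0.0% of genes; 676 genes and 3 members at an unadjusted p under 0.05). Over the 10 LPS+IFNγ libraries 1 of 37 passed, Etfa, with a slope of 0.36 ± 0.080 (edgeR adjusted p = 0.0392; 2.32% of genes). In the 10 LPS+IFNγ libraries Ppargc1a stood at 1.95, 1.08, 2.96, 1.75 and 4.77 CPM in KO cells and at 6.06, 0.997, 1.69, 14.7 and 2.29 CPM in het cells, again highest in animals 1 and 9. Acad10 likewise was highest there in het replicates 1 and 4, with 10.8 CPM and 19.8 CPM; the remaining 8 spanned 4.23 to 9.89 CPM. Eci1 had 40.1 CPM and 36.6 CPM in those replicates, and the remaining 8 spanned 24.4 to 30.3 CPM.

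The wider fatty acid genes were 36 in a separate list of uptake, synthesis, ketogenesis and regulation genes. In the averaged stimulation comparison with 20 libraries 0 of 34 tested passed, against 5.02% of all genes, with a median of -0.097. With 16 libraries 1 of 33 passed, against 15.0% of all genes; it was Pparg, which was lower, and the median was -0.14. With the animal as a block over 16 libraries 4 of 33 were higher (17.3% of all genes) and 10 lower (16.1% of all genes), with a median of -0.12. Between KO and het controls 0 of 34 passed.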

How the data were processed

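RNA from 20 libraries of primary TECs, 4 groups of 5, was sequenced by the authors from a directional library kit, per the labels' protocols. The deposited table holds estimated counts per Ensembl gene as whole numbers. Build GRCm39, Salmon 1.10.2, DESeq2 1.45.3, FastQC 0.11.9 and R 4.4.1 are listed, with no roles, per the submitters' processing notes. How transcripts were summed to genes was not stated.

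Counts were scaled by TMM, filtered with filterByExpr and tested in R 4.3.3 with edgeR 4.0.16 (quasi-likelihood, Benjamini-Hochberg over all genes tested, threshold 0.05) in 1 model of 4 group means. DESeq2 1.42.0, limma 3.58.1 (voom), other filters and scalings, an animal block and left-out libraries were alternatives. Ratios used counts plus 0.5 and exact permutation tests. CPM per kb used the union of exons in GENCODE M21 (GRCm38). On simulated data with 200 genes of 14332 changed by 1 on the log2 scale, the group contrast recovered 200 and made 9 false calls. Smaller changes were not simulated. Nor were animal effects or libraries against their labels, and all genes had 1 spread, so this recovery does not carry over to the 20 libraries. There, 0 of 10 genes of the IFNγ and LPS response passed in het cells, at a median log2 change of 5.26.

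Values in every library are given for Acadm, Acadl, members called with 20 libraries, the 6 with the lowest p of the averaged stimulation contrast and the 4 with the lowest p of the slope on the tubule score (for Acad10, Eci1 and, in controls, Ppargc1a partly as ranges). The genes and lists were chosen with earlier results of these data known. Animal numbers in the labels pair the libraries: 2 of 1 animal deviated together (correlation over 0.1) in 8 of 10 animals, the range being -0.298 to 0.623. Since nothing says that cultures were otherwise independent, a p-value here reflects only how libraries varied.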

Additional observations from a re-analysis of the deposited data

Results flagged for a closer look

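Of 44 sets of 4 or 5 libraries examined for a library far from the others of its group, 3 held one, and chance gives about 1 in 20. Acsl5 was at 79.3 CPM in het LPS+IFNγ replicate 5, the library without Nos2, where the nearest of its group had 157 CPM. Acsl5 was at 140.4 CPM in het control replicate 1 (animal 1), where the nearest had 97.8 CPM. Acad10 was at 9.89 CPM in KO LPS+IFNγ replicate 5, where the nearest had 7.46 CPM.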

How the results depend on the processing

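The counts of members called depended on which animals entered, and the cause was not tested. With 20 libraries the het, KO and averaged comparisons called 0, 0 and 3 members, against 0.0%, 0.0% and 5.02% of all genes. DESeq2 called 3 in het and 6 in the average, and limma-voom 0 in the average. Without animals 4 and 8 the counts were 6, 1 and 8; with the animal as replicate block as well, 11, 4 and 19; without animals 1, 4, 8 and 9, a choice made after seeing the data, 1, 5 and 9. The average called 0 without animals 1 and 9, 0 without animals 5 and 7, and 0 with the replicate block on 20 libraries. Of all genes 0.0% passed without animals 1 and 9 and 0.0% with that block, so these counts of 0 are not particular to the members. Over 16 libraries DESeq2 called 2 in KO. Shares over all genes are not given here for DESeq2, limma-voom or the fit without animals 5 and 7. Nor are they given below for fits with 1 library left out or with no filter.

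Leaving out 1 library at a time gave 0 to 4 in het, 0 to 0 in KO and 0 to 6 in the average with 20 libraries, and 4 to 8, 1 to 2 and 6 to 10 with 16. With 20 libraries the averaged call of Acsl5 was lost in 14 of 20 such fits (adjusted p up to 0.0733), of Acadm in 9 (up to 0.0618) and of Etfb in 14 (up to 0.0830); with 16 libraries those of Acsl5, Acadm, Etfb, Acadl, Hsd17b4 and Acat1 held in all 16. KO against het gave 0 in each group and for the difference of responses.

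The slope on the tubule score called 9 in control libraries with no filter, 0 without animals 1 and 9 and 5 to 18 with 1 library left out. In LPS+IFNγ libraries it called 0 with no filter and 0 to 3 with 1 left out. Without animals 1 and 9 it called 1 there, with a negative slope, in place of the positive slope of Etfa. The ratio difference was -0.73 (exact permutation p = 0.2) in het without animals 1 and 9, -1.06 (p = 0.25) with the replicate block, -1.52 (p = 0.25) with that block without animals 4 and 8 and -1.43 to -0.91 with 1 library left out. In KO it was -1.06 (exact permutation p = 0.0286) without animals 4 and 8, and -0.95 to -0.56 with 1 left out. Between genotypes it was -0.31 to 0.078 in controls and 0.031 to 0.55 with LPS+IFNγ with 1 left out, changing sign without KO control replicate 4 (0.078), and -0.17 with LPS+IFNγ without animals 1 and 9. Without animals 1, 4, 8 and 9, Acaa1b (0.030) and Ppargc1a (0.096) changed sign in KO against het controls. Of 1034 values for single members under these alternatives, 911 kept direction and call, 63 lost the call, 58 gained it and 2 changed sign. Members below about 1 CPM (Ppara, Cpt1b) allow no statement at this depth.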
